A study of Mus musculus with 78 samples.

Results

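Foxd3 is the intronless mouse gene for a forkhead transcription factor (ENSMUSG00000067261, GRCm38 chr4:99656299-99658622, plus strand). It was picked from the results of these data, because its RNA fell sharply after 24 h of TRIM28 degradation, and it is 1 of the 54446 gene IDs in the RNA-seq tables and 1 of the 54435 in the nascent RNA table. FOXD3 is known for keeping mouse embryonic stem cells (mESCs) pluripotent, where it binds enhancers and can both open chromatin and restrain transcription, and for specifying the neural crest later in development. Its expression declines as pluripotent cells differentiate.

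The libraries came from V6.5 mESCs in serum and LIF. In the tagged line, a clone grown from picked colonies, Trim28 carries an FKBP degron at its N-terminus, so that the compound dTAG-13 at 500 nM removes the TRIM28 protein, the corepressor that silences endogenous retroviruses (ERVs). Tagged cells in DMSO were compared with cells held for 2, 6, 24 or 96 h in dTAG-13 by poly(A) RNA-seq, and for 2, 6 or 24 h by TT-SLAM-seq, which sequences RNA made during a pulse of 15 min with 4-thiouridine at 500 µM. A line with hairpins against ERV RNAs (shERV) was taken after 24 h of DMSO, dTAG-13, or dTAG-13 with doxycycline (Dox), as total RNA. The protocol text in the labels gives all 3 of these groups a pretreatment of 24 h with Dox at 2 µg/ml. The treatment labels name Dox in the last of them only. Untreated parental mESCs without the degron, and neural progenitor cells (NPCs) in DMSO, whose Trim28 genotype the labels do not give, complete the 10 RNA-seq groups. Each RNA group has 3 libraries. ChIP-seq peaks of H3K27Ac and H3K9me3 (3 libraries a group), and of RNA polymerase II (RNAPII) and the Mediator subunit MED23 (2 a group), were called in tagged cells in DMSO or after 24 h of dTAG-13. All mESC lines were expanded on irradiated fibroblast feeders. The labels give feeder depletion for the tagged cells. Those of the parental and shERV cells do not mention it, although the study's methods describe it for RNA-seq in general. Their feeder content is therefore not known, and only levels of feeder markers are given here. The labels number the replicates without saying whether they were separate cultures, so p-values measure the spread between these libraries.

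The target's own RNA does not check the labels, because dTAG-13 acts on the protein. Trim28 averaged 624 TPM (a level per gene length and library size) in tagged DMSO cells, 372 TPM at 24 h, 192 TPM at 96 h and 1398 TPM in parental cells. The summed level of 5 mESC markers was 1701 to 1768 TPM in tagged DMSO libraries, 957 to 1046 TPM at 24 h and 177 to 205 TPM at 96 h. The summed level of 7 feeder fibroblast markers was 19.6 to 20.4, 24.7 to 27.1 and 264 to 288 TPM in the same groups, and 99.1 to 102 TPM in parental libraries, with Lum at 0 in tagged DMSO cells and Col1a1 the highest member at 96 h (183 TPM). In NPC libraries 5 progenitor markers summed to 3198 to 3253 TPM, against at most 83 TPM in any other group, and Pou5f1 and Zfp42 were at 0. In bulk RNA, fewer cells expressing Foxd3 and less Foxd3 RNA per cell cannot be told apart.

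The sequences below are those on which the ChIP results at the locus turn. They are the 299 bases around the summit of the strongest MED23 peak near Foxd3, GRCm38 chr4:99641914-99642212, and the 250 bases upstream of the annotated start, GRCm38 chr4:99656049-99656298, both on the plus strand. In the MED23 site capitals mark a forkhead motif (TGTTTNC) at position -107 from the summit and a SOX motif (ACAAAG) at position 50. In the promoter they mark a cAMP response element (TGACGTCA), an E-box (CACGTG) and a pair of KLF motifs (GGGNGTGG, on the minus strand), at positions -233, -217, -116 and -17 from the start.
MED23 site: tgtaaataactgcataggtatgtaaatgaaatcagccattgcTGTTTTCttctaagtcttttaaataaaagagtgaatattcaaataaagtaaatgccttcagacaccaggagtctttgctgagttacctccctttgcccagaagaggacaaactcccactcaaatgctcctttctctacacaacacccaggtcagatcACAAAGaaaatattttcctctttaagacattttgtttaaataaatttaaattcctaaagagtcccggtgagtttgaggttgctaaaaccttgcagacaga
Foxd3 promoter: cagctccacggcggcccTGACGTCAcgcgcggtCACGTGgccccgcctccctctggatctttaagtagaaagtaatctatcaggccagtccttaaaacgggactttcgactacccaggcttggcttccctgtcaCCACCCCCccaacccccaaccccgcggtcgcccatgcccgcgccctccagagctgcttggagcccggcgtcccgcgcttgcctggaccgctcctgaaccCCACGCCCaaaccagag

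Both strands were searched. The SOX, cAMP response element and E-box letters were added, and the MED23 window widened, after the sequences had been read, so these matches are descriptions only. The forkhead letters occur in 20.8% of 63045 windows of the same length around MED23 summits, and the SOX letters in 26%. Among 32851 promoters of 250 bases, the KLF letters occur in 15.9%, the cAMP response element in 1.55% and the E-box in 6.02%. The OCT octamer (ATGCNAAT), the SOX-OCT junction (TTGTNATG), the ESRRB motif (AAGGTCA), the CCAAT box, the TATA box (TATAAA) and the GC box (GGGCGG) were in neither sequence. The promoter is 65.6% G and C with 21 CpG, more CpG than 83.7% of promoters, whereas the MED23 site is 36.1% G and C with 1 CpG.

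Transcription of Foxd3 was measured in the TT-SLAM-seq libraries, which the choice of the gene did not use. The question is how the making of new Foxd3 RNA changed with time in dTAG-13. New Foxd3 RNA was still made at 2 h, was somewhat lower at 6 h, and had fallen 10.7-fold by 24 h, without reaching 0. How much TRIM28 protein was left was not measured in these libraries. The study reports near-complete loss of the protein by the middle treatment time, so the earliest libraries may still have held some of it. In DMSO the FPKM, a level per gene length and library size, were 4.19, 2.97 and 3.06. They were 3.33, 3.27 and 2.56 after 2 h, and 2.05, 2.31 and 2.49 after 6 h. After 24 h they were 0.302, 0.126 and 0.531. Every 6 h and 24 h library lay below every DMSO library, while the 2 h and DMSO libraries overlapped.

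Averaged by group, nascent Foxd3 was 3.41 ± 0.68 FPKM (SD, n = 3) in DMSO, 3.06 ± 0.426 FPKM in the 2 h libraries, 2.28 ± 0.224 FPKM in the 6 h libraries and 0.32 ± 0.203 FPKM in the 24 h libraries. On the scale of log2(FPKM + 0.5), which understates changes of low genes, the difference from DMSO at 2 h was -0.13 ± 0.18 (SE; 95% interval -0.54 to 0.28; limma, Benjamini-Hochberg adjusted p = 0.735). A fall of Foxd3 to the 6 h level lies inside that interval, so the data at 2 h do not set a firm limit. At 6 h the difference was -0.48 ± 0.18 (interval -0.89 to -0.07; limma adjusted p = 0.135) and did not pass the test. At 24 h it was -2.27 ± 0.18 (interval -2.68 to -1.86; limma adjusted p = 4.19e-05). A call here means an adjusted p under 0.05 and over 2-fold. By that rule 0.225% of the 13357 genes tested were called in either direction at 2 h and 0.569% at 6 h, and at 24 h 0.906% were lower and 2.49% higher. With each library centred on its median the 24 h counts went from 333 higher and 121 lower to 141 higher and 241 lower. Only 13 of the 13357 genes had a lower 24 h difference than Foxd3.

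Low FPKM rest on few reads. The reads behind Foxd3, recovered from the steps of the FPKM values, were 71, 87 and 81 in DMSO and 126, 108 and 84 at 2 h. They were 77, 98 and 96 at 6 h, and 17, 6 and 8 at 24 h. Summed by group and divided by the libraries' totals, this is 7.64, 7.13, 5.31 and 0.605 RPM (reads scaled to library size). The 24 h sum of 31 reads has an exact 95% Poisson interval of 21.1 to 44, against 239 reads in DMSO with an interval of 210 to 271. These intervals cover counting error only.

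The step from 2 h to 24 h was tested directly. Against the 2 h libraries, the 24 h libraries were 9.56-fold lower, or -2.14 ± 0.18 in log2 (SE; limma adjusted p = 4.34e-05). In that comparison 0.824% of genes were called lower and 2.75% higher, and with centring the counts moved from 367 higher and 110 lower to 115 higher and 231 lower. Both comparisons use the same 24 h libraries, so they are not separate evidence.

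**Figure D1:**
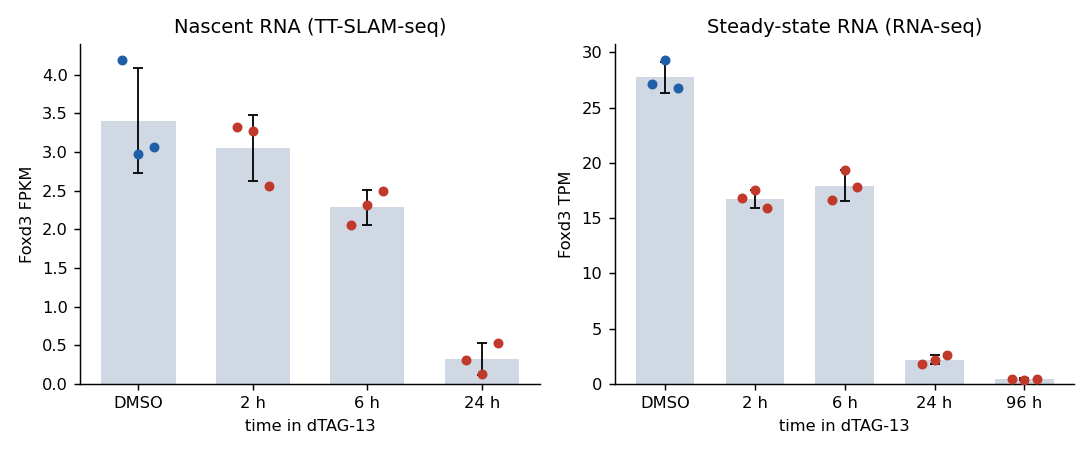
Foxd3 by time in dTAG-13, as nascent RNA (left, FPKM) and steady-state RNA (right, TPM), with points for libraries, bars for the mean of 3 and error bars for the SD. Nascent Foxd3 overlapped DMSO at 2 h and was at or below 0.531 FPKM at 24 h, and steady-state Foxd3 was already below every DMSO library at 2 h.

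The steady-state RNA of the same line chose the gene, so its values are given with no test. In tagged DMSO cells Foxd3 stood at 27.1, 29.3 and 26.8 TPM. It stood at 16.8, 17.5 and 15.9 TPM after 2 h and at 16.6, 19.4 and 17.8 TPM after 6 h. It was 1.79, 2.17 and 2.6 TPM after 24 h. All treated libraries lay below the DMSO libraries, the 2 h and 6 h libraries overlapped each other, and a wide gap separated them from 24 h.

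By 96 h the values were 0.463, 0.334 and 0.45 TPM. The DMSO mean was 27.7 ± 1.36 TPM (SD, n = 3), followed by 16.7 ± 0.816 TPM in the 2 h group, 17.9 ± 1.41 TPM in the 6 h group and 2.19 ± 0.403 TPM in the 24 h group. The 96 h mean of 0.416 ± 0.0708 TPM was 66.7-fold below DMSO. In DMSO Foxd3 was above 63.7% of the genes with at least 1 TPM, and at 24 h above 13.5% of them. On the log2(TPM + 0.5) scale the differences were -0.71, -0.62, -3.40 and -4.95. As background, the rule for calls was met by 0.374% of the 17922 genes in the fit at 2 h and 0.965% at 6 h in either direction. It was met by 2.01% lower and 10.1% higher at 24 h, and by 12.4% lower and 20.3% higher at 96 h. With centring, the counts went from 1819 higher and 360 lower to 886 and 919 at 24 h, and from 3634 and 2228 to 2713 and 3364 at 96 h.

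The steady-state level at 2 h was 0.603 of the DMSO level and the nascent level 0.897 of it. Steady-state and nascent libraries were made by different methods and scaled separately, so these ratios stand side by side and their difference was not tested. Of the 24 h libraries, replicate 1 was the shallowest, at 0.341 of the depth of the median RNA-seq library, and held 2.01 reads per base over Foxd3 against 8.91 and 12.4 in the others. Its TPM was the lowest of the 3. Without it the 24 h difference is -3.29.

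The shERV line gives a separate set of libraries, in which TRIM28 was degraded with or without Dox. No group is labelled as Dox without dTAG-13, and ERV RNA was not analysed here. Foxd3 was 3.05-fold lower in dTAG-13 alone than in DMSO, and 2.68-fold higher in dTAG-13 with Dox than in dTAG-13 alone. For this line, fell and rose refer to differences between groups of libraries, not to changes followed over time. It stood at 6.43, 6.65 and 6.21 TPM in DMSO and at 2.47, 1.86 and 2 TPM in dTAG-13. With dTAG-13 and Dox it stood at 5.81, 6.14 and 5.01 TPM. The 3 groups did not overlap, and the Dox group lay just under DMSO.

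The means were 6.43 ± 0.222, 2.11 ± 0.32 and 5.66 ± 0.579 TPM (SD, n = 3). The log2 difference of dTAG-13 from DMSO was -1.42 ± 0.10 (SE; limma adjusted p = 7.12e-07). The difference of dTAG-13 with Dox from dTAG-13 alone was 1.24 ± 0.10 (limma adjusted p = 2.36e-06). Between dTAG-13 with Dox and DMSO it was -0.17 (interval -0.40 to 0.05; limma adjusted p = 0.353), a difference that did not pass the test and whose interval reaches a fall of 0.40. All 3 comparisons share libraries. Of 16166 genes, 1.44% were called lower and 2.38% higher in dTAG-13 than in DMSO. With Dox against dTAG-13 alone, 1.96% were lower and 1.49% higher, and against DMSO 0.0186% were called in either direction. With centring, the split went from 385 higher and 232 lower to 246 and 353 in the first comparison, and from 241 and 317 to 293 and 252 in the next.

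The summed mESC markers moved alongside Foxd3 in this line, from 746 to 843 TPM in DMSO to 385 to 393 TPM in dTAG-13 and 798 to 814 TPM with Dox, while the feeder markers stayed between 96.5 and 117 TPM. Their part in the Foxd3 result was not tested. The protocol text in the labels gives a pretreatment of 24 h with Dox at 2 µg/ml for all 3 groups, while the treatment labels name Dox in 1 group only, so which groups had the hairpins induced is taken from the treatment labels.

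Across the 10 groups, the order of Foxd3 levels was tagged DMSO, tagged 6 h, tagged 2 h, parental, shERV DMSO, shERV dTAG-13 with Dox, tagged 24 h, shERV dTAG-13, tagged 96 h and NPCs. The libraries of neighbouring groups overlapped between 6 h and 2 h and between tagged 24 h and shERV dTAG-13, and were separate elsewhere. The parental line stood at 14.2, 15.1 and 13.9 TPM, a mean of 14.4 ± 0.642 TPM (SD, n = 3) that is 0.52 of the tagged DMSO mean. That comparison uses the libraries that chose the gene. The shERV DMSO libraries, made from total RNA, were 2.24-fold below parental libraries, and line and library kit cannot be told apart in that difference.

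In NPCs Foxd3 was close to silent, at 0.0897, 0.31 and 0.15 TPM. Against parental mESCs the NPC mean of 0.183 ± 0.114 TPM (SD, n = 3) was 78.6-fold lower, which is -4.46 ± 0.11 in log2 (SE; limma adjusted p = 1.38e-10). Of the 17458 genes in that fit 19.1% were called lower and 30.3% higher (5287 higher and 3331 lower, and 3546 and 5580 with centring), so a call is common here. Coverage over Foxd3 was 0.29, 1.33 and 0.604 reads per base, so the spread between NPC libraries rests on few reads. Tagged cells after 96 h in dTAG-13 were 2.27-fold above NPCs. Without NPC replicate 2 the NPC mean is 0.12 TPM, 120-fold below parental cells and 3.47-fold below tagged cells at 96 h.

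**Figure D2:**
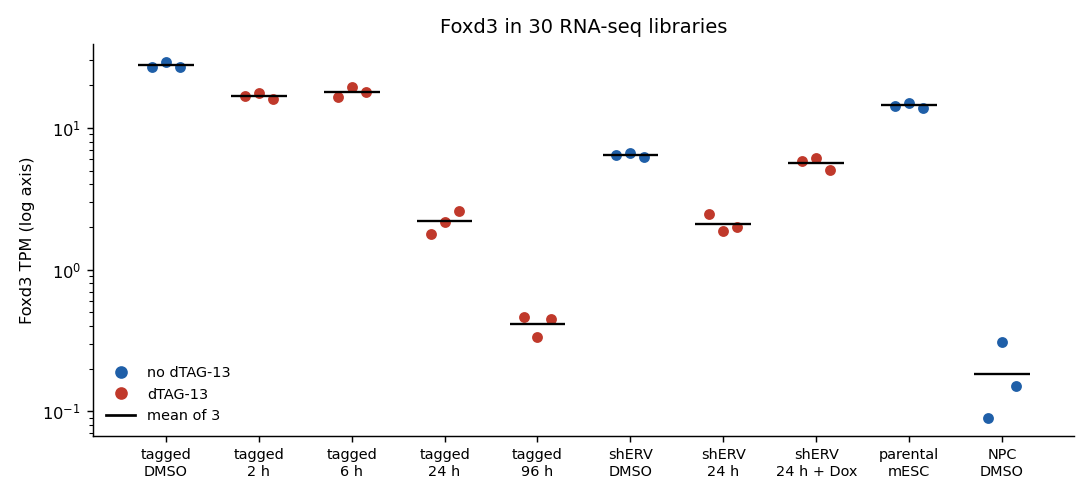
Foxd3 level (TPM, log axis) in 30 RNA-seq libraries of 10 groups, with points for libraries and lines for the mean of 3. The 24 h dTAG-13 libraries of the tagged and the shERV line overlap near 2 TPM, and the 96 h and NPC libraries lie under 0.5 TPM.

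At the Foxd3 locus, the ChIP peaks show Mediator before treatment and nearly none after it. Within 1 kb of the Foxd3 start no library had an H3K27Ac, H3K9me3 or RNAPII peak, with or without dTAG-13. The nearest RNAPII peak lay 59 kb away in both DMSO libraries and 928 kb away in both dTAG-13 libraries. The RNAPII lists were shorter as a whole in dTAG-13, with 8182 and 7689 peaks against 19853 and 19194, and 39.8% of the 11003 gene starts with an RNAPII peak in every DMSO library had none in dTAG-13. Missing promoter peaks are unusual for the gene's level. Levels of 20 to 40 TPM in tagged DMSO cells were shared by 2193 protein-coding genes. Of these, 88.1% had an H3K27Ac peak within 1 kb of their start in every DMSO library. By the same measure 79.8% had an RNAPII peak, 0.958% an H3K9me3 peak and 92.7% a MED23 peak.

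MED23, a subunit of the Mediator complex that links enhancers to RNAPII, did have peaks on Foxd3. The peak over the start reached 6.88 and 5.66 fold enrichment in the DMSO libraries. A higher peak from 0.6 to 2.1 kb into the gene, with its summit at 1.8 kb, reached 8.58 and 9.15 and was the value tested. Neither had a counterpart in the dTAG-13 libraries, where the peak caller listed 15335 and 14551 MED23 peaks against 63045 and 58925 in DMSO. With 2 libraries a group an exact permutation test cannot go below p = 0.33, the value here. Over all gene starts with a MED23 peak, 98.1% of 17418 had every dTAG-13 library below every DMSO library, and 65.7% of the 17376 starts with a peak in every DMSO library had none in dTAG-13. The loss at Foxd3 is therefore near that of the background.

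The strongest MED23 peak near Foxd3 lay 14.2 kb upstream, at the sequence printed above. It reached 34.8 and 28 fold enrichment in DMSO and 10.4 and 9.62 in dTAG-13. Only 2.17% of the 48147 sites with a MED23 peak in every DMSO library had a higher mean. The mean went from 31.4 ± 4.84 (SD, n = 2) to 9.99 ± 0.515, a ratio of 0.318, and the exact permutation p was 0.33, again the smallest possible. Over the 11136 sites with a peak in all libraries the median ratio was 0.49 with quartiles of 0.33 and 0.74, and 23.3% of them had a lower ratio than this site. Of the 48914 sites with a peak in at least 2 libraries, 93.3% had every dTAG-13 library below every DMSO library. It was the sole site within 50 kb that kept a MED23 peak, out of 14 regions with a peak in DMSO.

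The same upstream site carried H3K27Ac, the acetyl mark of active enhancers. Its fold enrichment was 3.47, 5.54 and 6.05 in the DMSO libraries, and 2.77 and 3.13 in 2 of the dTAG-13 libraries, with no peak in the other. The groups did not overlap, and the exact permutation p was 0.1, the smallest that 3 against 3 allows. By comparison, 12% of the 83263 H3K27Ac sites with a peak in at least 2 libraries, and 23.9% of the 41905 with a peak in every DMSO library, had every dTAG-13 library below every DMSO library. The library with no peak here, replicate 1 of dTAG-13, had 30259 H3K27Ac peaks in all, against 117348 and 45662 in the other dTAG-13 libraries and 88050 to 117475 in DMSO.

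Other signals near the gene were weak. A region 13.3 to 13.9 kb downstream had H3K27Ac peaks of 2.76, 3.66 and 2.86 in DMSO and none in dTAG-13, next to MED23 peaks of 9.78 and 9.53 that were also absent in dTAG-13. Of sites with a peak in every DMSO library, 9.31% for H3K27Ac and 70.8% for MED23 had none in dTAG-13. The mark of ERV silencing, H3K9me3, had peaks of 2.56, 2.5 and 2.67 at 15.7 to 16.3 kb downstream in DMSO and none in dTAG-13. The H3K9me3 libraries in dTAG-13 held 11474, 105690 and 147611 peaks, so the first of them was sparse, and 30.2% of the 2456 gene starts with an H3K9me3 peak in every DMSO library had none in dTAG-13.

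**Figure D3:**
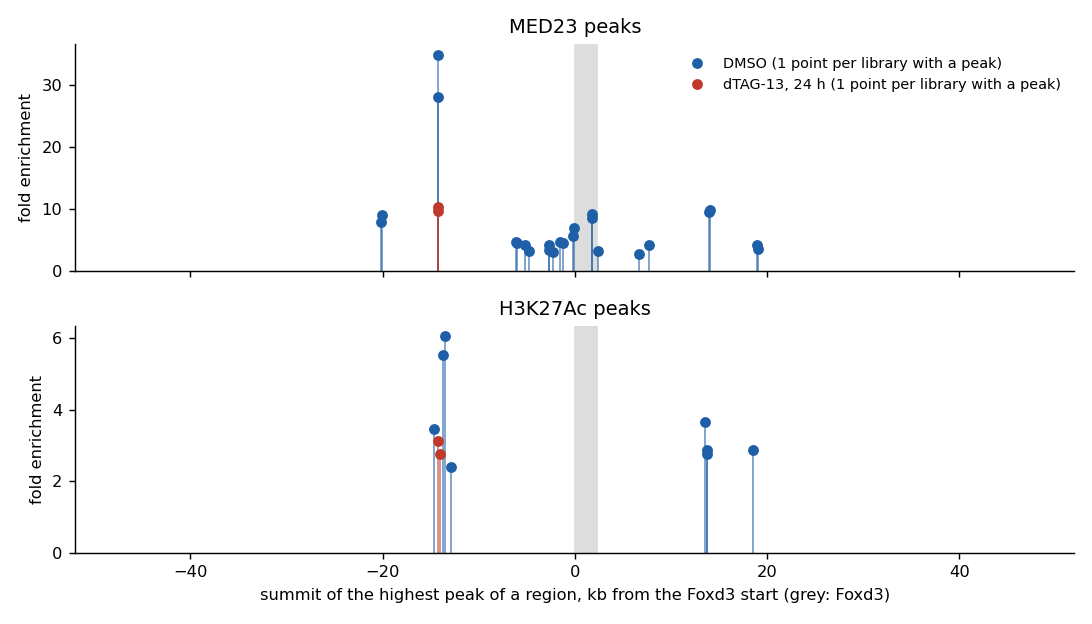
Fold enrichment of MED23 (top) and H3K27Ac (bottom) peaks by distance of the summit from the Foxd3 start in kb, with a point for each library that has a peak in the region and the gene in grey. The site at -14.2 kb holds the highest peaks of both, and it is where the dTAG-13 points lie, at 10.4 and 9.62 for MED23 and 2.77 and 3.13 for H3K27Ac.

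The nearest gene outside Foxd3 with RNA in these cells was Gm12688, a lincRNA on the opposite strand whose start lies 1.32 kb upstream of Foxd3. Its new RNA also fell at 24 h. Nascent Gm12688 rested on 12, 17 and 11 reads in DMSO and 7, 2 and 1 reads at 24 h, and its level changed by -1.20 ± 0.23 in log2 (limma adjusted p = 0.0029), which falls to -0.79 and is no longer over 2-fold with a pseudocount of 1. The reads were few in every library, although each 24 h library was under each DMSO library.

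In RNA-seq of tagged cells Gm12688 and Foxd3 parted at the early times. Gm12688 stood at 9.87, 8.18 and 8.86 TPM in DMSO, 8.36, 10.1 and 11.1 TPM at 2 h, and 8.82, 11.1 and 10.9 TPM at 6 h, with differences of 0.12 (limma adjusted p = 0.757) and 0.18 (limma adjusted p = 0.557). At 24 h it stood at 3.11, 5.77 and 5.27 TPM, a difference of -0.90 that was under 2-fold, or -1.19 and called lower with centring. At 96 h it was 0.334 TPM in 1 library and listed at 0 in the others. In the shERV line it fell by 1.15 on the log2 scale in dTAG-13 (limma adjusted p = 0.000297) and rose by 1.17 with Dox (limma adjusted p = 0.000333). Both are under 2-fold with a pseudocount of 1 or on the FPKM scale.

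Of 23 genes within 500 kb of Foxd3, 7 are protein coding, and 8 were tested in the RNA-seq time course. At 24 h 1 of the 8 was higher and none lower, where 10.1% of all genes were higher. It was Pgm1 (ENSMUSG00000025791, named Pgm2 in the RNA-seq tables), which encodes phosphoglucomutase, at 1.26 ± 0.07 (log2; SE), or 0.97 and no longer called with centring. With centring Gm12688 (-1.19) and Ror1 (-1.06) were called lower at 24 h, against -0.90 and -0.77 without it. At 96 h Ror1 was called higher (1.26) before centring and not after it (0.98), while Gm12688 was lower (-3.99). Of all genes, 20.3% were higher and 12.4% lower at 96 h. The nearest protein-coding gene, Alg6, 57 kb downstream and named after its values were seen, differed by 0.62 at 24 h, with less than 2-fold in every comparison. Within 50 kb lie 3 further genes. The pseudogene Gm12687 and the antisense gene Gm12682 were not tested for low values. The miRNA gene Gm23366 sits inside the Foxd3 exon on the same strand with at most 2 nascent reads a library, and reads there can count for both genes.

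FOXD3 works beside the core pluripotency factors, a list of 8 genes that includes Pou5f1, Sox2 and Nanog. Among their nascent RNA none was called at 24 h, with a median difference of -0.16 against 0.21 over all genes. Sox2 stood at -0.96 (limma adjusted p = 0.00204) and Nanog at 0.51 (limma adjusted p = 0.126), and with centring 1 of the 8 was called lower. In steady-state RNA 1 of 8 was lower at 24 h, Pou5f1, which encodes OCT4, from 1162 to 537 TPM. At 96 h 7 of 8 were lower, with a median of -2.65. Of all genes, 2.01% were lower at 24 h and 12.4% at 96 h.

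A list of 12 naive pluripotency genes was followed in the same libraries. Of the 10 tested in nascent RNA, 2 fell at 24 h, Nr0b1, which encodes the nuclear receptor DAX1, by 1.84 on the log2 scale (limma adjusted p = 2.11e-05) and Klf4, a Kruppel-like factor, by 1.02 (limma adjusted p = 0.0047). The Klf4 call was lost with a pseudocount of 1 (-0.83), without DMSO replicate 1 (-0.87) or 2 (-0.90), and without 24 h replicate 1 (-0.99) or 2 (-0.98). In steady-state RNA 6 of 12 were lower at 24 h, led by Nr0b1 (-2.85), Klf4 (-1.89), Klf5 (-1.43) and Zfp42 (-1.26), and 10 of 12 at 96 h. The median at 24 h was -0.86, against 0.13 over all genes. Of all genes, 0.906% were lower in nascent RNA at 24 h. The RNA-seq shares were 2.01% at 24 h and 12.4% at 96 h.

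In the shERV line 9 of 12 naive genes fell in dTAG-13 and 9 rose with Dox, with medians of -1.47 and 1.56 against 0.14 and -0.04 over all genes. Of all genes, 1.44% were lower in dTAG-13 and 1.49% higher with Dox. Nr0b1 fell by 3.49 on the log2 scale, from 12.4 to 0.654 TPM, and Tcl1, a coactivator of AKT, by 2.62. Of the 8 core genes 2 fell, Sox2 by 1.41 and Nanog by 1.06, and both rose with Dox. Foxd3 at -1.42 lay close to Sox2 and to the median of the naive genes. These lists were chosen with earlier results known, and their counts are descriptions.

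**Figure D4:**
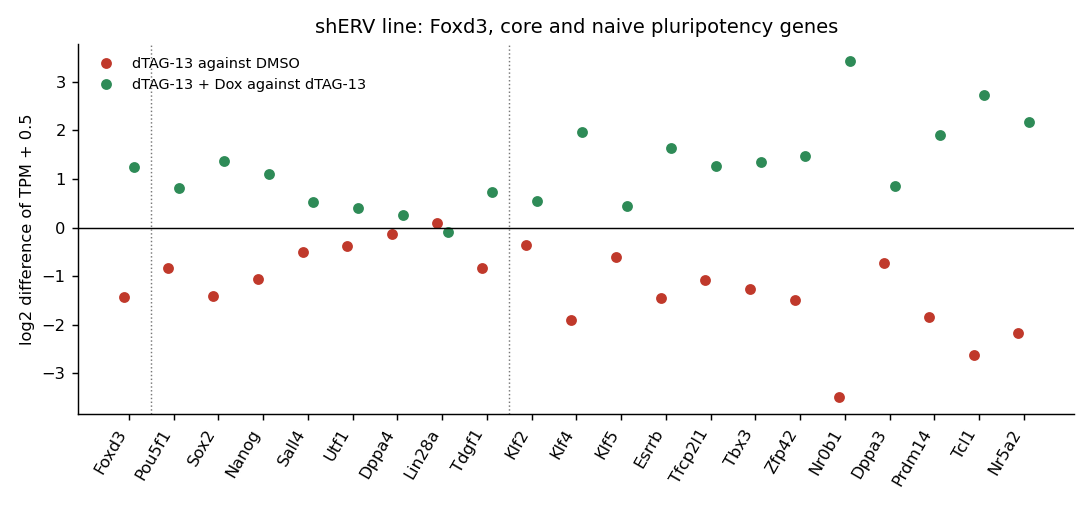
Log2 differences of TPM + 0.5 in the shERV line for Foxd3, 8 core and 12 naive pluripotency genes (separated by dotted lines), with red for dTAG-13 against DMSO and green for dTAG-13 with Dox against dTAG-13 alone. Foxd3 lies at -1.42 and 1.24, and the widest pair is that of Nr0b1, at -3.49 and 3.43.

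Formative and primed epiblast genes are those that come on as naive cells move towards the postimplantation state. Of 12 tested in RNA-seq, 5 were lower and none higher at 24 h, where 2.01% of all genes were lower and 10.1% higher. The falls were in Lef1 (-2.08), Etv4 (-1.96), Fgf5 (-1.48), Pou3f1 (-1.08) and Dnmt3b (-1.04). At 96 h 8 of 12 were lower, where 12.4% of all genes were lower. Otx2, a regulator of the formative state, stood at 13.8 TPM in DMSO and 15 TPM at 24 h, and fell to 2.88 TPM by 96 h.

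FOXD3 is known for holding back mesendoderm genes in mESCs, and 12 genes of mesendoderm, endoderm and trophectoderm were followed. Of the 11 tested in RNA-seq none was higher at 24 h, when Foxd3 stood at 2.19 TPM, and Cdx2 was lower, from 1.19 to 0.308 TPM. At 96 h 4 were higher, Sox17 (4.18), Hand1 (3.05), Gata6 (2.03) and Foxa2 (1.38). Gata4 (0.98), Cdx2 (0.87), Pdgfra (0.57), Mixl1 (-0.03), T (-0.05), Sox7 (-0.44) and Eomes (-0.83) were not called, and Eomes was called lower with centring. Of all genes, 10.1% were higher and 2.01% lower at 24 h, and 20.3% were higher at 96 h. In the shERV line 1 of 9 tested was higher in dTAG-13, where 2.38% of all genes were higher, and 8 were not called. Against dTAG-13 alone, 1 of 9 was lower with Dox, where 1.96% of all genes were lower. Both calls were Sox17, an endoderm factor, at 2.05 in log2 (limma adjusted p = 3.04e-05) and -1.73 (limma adjusted p = 0.000143). Sox17 stood at 0.577 TPM in DMSO, 3.91 TPM in dTAG-13 and 0.879 TPM with Dox. Across the alternatives each count ranged from 0 to 1. None of the 12 passed the filter in the nascent RNA.

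The neural crest, where Foxd3 is expressed in the embryo, was followed with 12 other genes. Of 9 tested, 8 were higher at 96 h, a time when Foxd3 itself was near its lowest, among them Pax3 (3.97), Msx2 (3.93) and Tfap2a (2.50). Of all genes, 20.3% were higher at 96 h. The remaining tested gene, Sox10, was not called, at 0.749 TPM in DMSO and 1.06 TPM at 96 h (0.33, limma adjusted p = 0.16). Pax7, at 0.06 TPM, and Sox9, at 0.887 TPM, were low at 96 h and were not tested. At 24 h, where 10.1% of all genes were higher, Snai2 was higher (1.16) before centring and not after it. The feeder markers rose at 96 h as well, to 264 TPM or more. Mesenchymal cells also express Msx2, Twist1 and Snai2, and the part of the feeders in these values was not tested.

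Corepressors and remodellers reported to work with FOXD3 changed little. Of 7, Tle4, a Groucho corepressor, was lower at 24 h (-1.26) and 96 h (-1.11), and no member passed 2-fold in nascent RNA or in the shERV line. Among all genes 2.01% were lower at 24 h and 12.4% at 96 h, so 1 of 7 at 96 h is near the background. In NPCs, where 30.3% of all genes were higher, Hdac2 was higher (1.11), a call lost with centring.

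The other members of the forkhead family were counted against all genes. Of 29 tested in RNA-seq, 1 was lower and none higher at 24 h, where 2.01% of all genes were lower and 10.1% higher. The lower gene was Foxp1, from 95.3 to 44.3 TPM (-1.10), and the family median was 0.11 against 0.13 over all genes. Foxi3 stood at -0.98, just under 2-fold, and was called with centring. In nascent RNA 1 of 13 fell, Foxi3 again, from 3.53 to 1.46 FPKM (limma adjusted p = 0.00426). That call sits at the 2-fold limit and was lost with a pseudocount of 1 (-0.85), without DMSO replicate 1 (-0.78) and without 24 h replicate 2 (-0.93). At 96 h 10 were higher, among them Foxl2 (3.09), Foxf1 (3.00) and Foxf2 (2.95), and 5 lower, among them Foxi3 (-3.12), with 8 in each direction after centring. Of all genes, 20.3% were higher and 12.4% lower at that time. Foxh1, the Nodal effector, was 68.9 TPM in DMSO, 72.7 TPM at 24 h and 31.9 TPM at 96 h. In the shERV line none of 24 changed over 2-fold in dTAG-13, with Foxi3 at -0.88 (limma adjusted p = 2.55e-06; -1.04 and called with centring) and Foxp1 at -0.59 (limma adjusted p = 0.000767).

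The genes whose pattern was most like that of Foxd3 were ranked by Pearson's r over the 10 group means of log2(TPM + 0.5), among 14583 genes. The first 10 were Xpo4 (0.987), Thada (0.982), Heatr1 (0.978), Aoah (0.978), Wdr3 (0.974), Gm11839 (0.973), Vwa3b (0.973), Wdr74 (0.971), Hpdl (0.969) and Gm11841 (0.967). The median over all genes was -0.110, and 39 genes were above 0.95. Groups share lines, kits and treatment, so the points are not independent. None of the 10 is in the pluripotency lists, and the closest list members were Nr0b1 at 0.904, in place 173, Tcl1 at 0.895 and Nr5a2 at 0.892. Without NPCs that order changes, and Sall4 at 0.959 and Pou5f1 at 0.921 are above Nr0b1 at 0.896. Likeness of pattern is not likeness of size. Xpo4 went from 73.9 TPM in DMSO to 41.4 TPM at 24 h, with no call in nascent RNA, whereas Aoah went from 9.95 to 2.12 TPM and Vwa3b from 23.3 to 4.88 TPM. Without NPCs 3 of the 10 stayed among the first 10, and with Spearman's rho 2 did.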

How the data were processed

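Foxd3 was followed in all RNA and peak files of tagged, parental, shERV and NPC samples. Single-cell, Hi-C and input samples were not used here. For TT-SLAM-seq the authors kept reads with T-to-C conversions (SLAM-DUNK), counted them by strand over GENCODE genes with htseq-count, reads in overlapping genes counting for each, and deposited FPKM. For RNA-seq they deposited TPM, FPKM and coverage from StringTie 2.0.6 after STAR 2.7.5a and cutadapt 2.4 (submitters' processing notes). The deposited peak lists, made with BWA and MACS2, hold fold enrichment over input and −log10 p and q values, 1 list per library. H3K27Ac, H3K9me3 and RNAPII samples held fly S2 cells as a spike-in and MED23 samples did not, and fold enrichment is used as deposited. The annotation places 53225 of 53229 shared gene IDs where the RNA tables do, on GRCm38.

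Genes with at least 0.5 FPKM or 1 TPM in at least 3 libraries entered limma 3.58.1 (R 4.3.3) on log2(value + 0.5), a fit per experiment (nascent, time course, shERV, and the 3 lines), with Benjamini-Hochberg adjustment over all genes tested and calls at adjusted p under 0.05 and over 2-fold. The fits were tested on simulated data. The low FPKM values were whole multiples of a read, within 0.1, for 97.9% to 98.7% of low values, which gave library totals of 6480580 to 24259168 reads and the Foxd3 reads. RNA-seq depth was the median over genes of coverage, relative to the median library. Peaks were compared by the highest fold enrichment within 1 kb of the start, with an exact two-sided permutation test. Sequences and motif counts came from the RefSeq GRCm38 genome and promoter table.

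Foxd3 was described with no test in every comparison with the tagged DMSO RNA-seq libraries, since these chose it. The fit behind the test of NPCs against parental cells also held those libraries, so they entered its estimate of spread. The gene lists, motifs and Foxd3 itself were chosen with earlier results of these data known. Named besides Foxd3 are the 10 genes of highest Pearson's r over group means with at least 5 TPM in some group, list members that were called (up to 4 by size) or are best known, forkhead genes of at least 5 TPM, neighbours within 50 kb or called, and Trim28. Members beyond 4 were added after their values were seen. Alternatives were pseudocounts of 0.1 and 1, no filter, a mean of at least 5, centring on the median, deposited FPKM, a replicate block, recovered reads with voom, other peak windows, and each library left out.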

Additional observations from a re-analysis of the deposited data

Results flagged for a closer look

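The nascent RNA of Foxd3 behaved differently at the early and the late time. The log2 difference from DMSO was -0.13 at 2 h and -2.27 at 24 h, and the change between them, tested directly in the same fit, was -2.14 ± 0.18 (limma adjusted p = 4.34e-05). All 3 libraries at 24 h lay below all 3 at 2 h. Both times share the DMSO libraries. No group of libraries held 4 or more, so no library was tested for standing apart from its group.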

How the results depend on the processing

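Of 133 alternative values for the 8 tested Foxd3 results, 1 changed direction and no call changed. The nascent difference at 2 h went to 0.01 without DMSO replicate 1. Leaving out each library in turn gave -0.21 to 0.01 at 2 h, -0.56 to -0.34 at 6 h, -2.45 to -2.09 at 24 h and -2.32 to -1.96 for 24 h against 2 h (nascent, log2). It gave -1.51 to -1.35, 1.17 to 1.34 and -0.23 to -0.10 for the shERV comparisons (dTAG-13, Dox against dTAG-13, Dox against DMSO), and -4.59 to -4.36 for NPCs against parental cells, which spanned -5.75 (pseudocount of 0.1) to -3.45 (FPKM) under the other alternatives. Adjusted p ranged from 3.17e-07 to 0.000431 for the nascent fall at 24 h, from 5.64e-07 to 7.58e-05 for the shERV fall and from 0.0489 to 0.349 at 6 h. With recovered reads and voom the nascent difference was -4.01 at 24 h and -0.64 at 6 h (adjusted p = 0.0489, under 2-fold).

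The untested RNA-seq differences moved with the scale. At 24 h the value was -3.62 with a pseudocount of 0.1, -3.18 with 1, -3.69 with centring and -3.07 on FPKM, and at 96 h -5.76, -4.34, -5.22 and -4.13 in that order. NPCs against tagged cells gave -6.69, -4.60, -5.78 and -4.33, and parental against tagged cells -0.73 with centring. Of the 10 genes most like Foxd3, 3 stayed among the first 10 without NPCs and 2 with Spearman's rho. The MED23 difference within 1 kb of the start rests on the peak from 0.6 kb into the gene. It was 0 among the 10000 highest peaks of each library, and -9.15 to -8.58 with each library left out. A mean of at least 5 removed Foxd3 from the nascent and shERV fits, so these gave no value. The cause of these moves was not tested, other than by each scale's own construction.

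The labels do not say whether replicate numbers pair the libraries. Same-numbered libraries correlated at -0.36 to 0.26 (nascent), -0.08 to 0.18 (time course), -0.39 to 0.12 (shERV) and -0.06 to 0.20 (lines). Libraries of different number correlated at -0.30 to 0.30, -0.16 to 0.13, -0.18 to 0.36 and -0.24 to 0.11 in that order. These ranges overlap, which cannot show whether libraries were prepared in pairs. The fit with a replicate block gave -2.27 (adjusted p = 0.000303) at 24 h and -1.42 (adjusted p = 1.63e-06) in the shERV line, and changed no call. Counts over all genes depend on the scale. For the nascent fall at 24 h, 121 genes were lower, 203 with a pseudocount of 0.1, 36 with a mean of at least 5 and 507 with voom.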
